A study of Mus musculus with 2 samples.

Results

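Chromatin bound by Oct4 and retained on the lectin sWGA was examined around 5 genes of embryonic stem cell self-renewal, Klf2, Klf5, Nr5a2, Tbx3 and Tcl1. The data are lists of peaks, regions where sequenced tags were enriched over a background. A peak was taken when its summit, the position of greatest tag height, lay in a fixed window of mm9, the genome build of the files. The windows were chromosome 8 from 74.8 to 74.89 Mb for Klf2, chromosome 14 from 99.65 to 99.76 Mb for Klf5, chromosome 1 from 138.7 to 138.9 Mb for Nr5a2, chromosome 5 from 120.07 to 120.18 Mb for Tbx3 and chromosome 12 from 106.41 to 106.5 Mb for Tcl1. They held 38 of the 33783 peaks in the sWGA list, which is 0.112% of the peaks, on 600 kb of sequence. The control list held 0 of its 750 regions there.

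Both libraries came from ZHBTc4 F-Oct4 mouse embryonic stem cells, which carry Oct4 with a Flag tag. ZHBTc4 cells are known as a line with both Pou5f1 copies disrupted, in which a transgene that doxycycline shuts off supplies Oct4. Culture conditions, and whether the drug was used, are not analysed here. In both groups chromatin was cross-linked with formaldehyde and first bound with anti-Flag antibody. In the sWGA group the eluate was bound again to beads with sWGA, a lectin for N-acetylglucosamine, and in the control group to beads that the labels describe in differing ways (IgG, agarose, input). There was 1 library per group, so no value has a replicate error and no p-value is given. After the authors' filter the sWGA library held 6129874 tags (mapped reads) and the control library 78351, a depth ratio of 78.2.

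Oct4, the product of Pou5f1, binds DNA together with Sox2 and holds mouse embryonic stem cells in the pluripotent state. O-GlcNAc is a single sugar that the enzyme Ogt places on serine and threonine residues of nuclear and cytoplasmic proteins, transcription factors among them. Because the chromatin was cross-linked, sWGA could retain a fragment through Oct4 or through another sugar-bearing protein on the same fragment, and these cannot be told apart. Of the 5 genes, Klf2 and Klf5 encode Krüppel-like zinc finger factors that, with Klf4, support self-renewal. Nr5a2 encodes an orphan nuclear receptor that binds regulatory elements of Pou5f1. Tbx3 encodes a T-box factor of the naive pluripotency network. Tcl1 differs from the others, since it encodes a cofactor that activates the kinase Akt and not a DNA-binding protein.

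Peaks were denser in all 5 windows than on the rest of the same chromosomes. The 600 kb held 63.3 peaks per Mb, against 12.7 per Mb on the rest of chromosomes 1, 5, 8, 12 and 14, a ratio of 4.98. The Klf5 window was the densest, with 14 peaks and 11.2 times the density of the rest of chromosome 14. The Klf2 window had 6 peaks and 5.39 times the density of its chromosome, and the Tbx3 window had 8 peaks and 5.27 times. The Tcl1 window held 4 peaks, at 3.43 times, and the Nr5a2 window held 6 peaks over a longer stretch of 200 kb, at 2.34 times. In the 50 kb on either side of the windows lay 12 further peaks, or 24.0 per Mb when pooled. Of these 5 were beside Klf5, 4 beside Tbx3, 2 beside Klf2, 1 beside Nr5a2 and 0 beside Tcl1. The flanks of Nr5a2 and Tcl1 were thus not denser than their chromosomes, which had 12.8 and 13.0 peaks per Mb outside the windows. Counts of 1 and 0 peaks are too small to set a flank below its chromosome. The windows were laid around genes with earlier results of these data known, so these ratios are descriptions of the windows as drawn.

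As a background, the same 5 chromosomes were divided into tiles of each window's own length, and the peaks in each tile were counted. The stretches of the windows were not left out. All peaks of the Klf5, Klf2 and Nr5a2 windows fell within a single tile of that length, so these windows are counted in their own background. Of 6612 tiles of 110 kb, 3 (0.0454%) held at least the 14 peaks of the Klf5 window. At least the 8 peaks of the Tbx3 window were found in 52 such tiles (0.786%). For the windows of 90 kb, 117 of 8082 tiles (1.45%) reached the 6 peaks of Klf2 and 541 (6.69%) reached the 4 peaks of Tcl1. The 6 peaks of the Nr5a2 window were reached by 387 of 3635 tiles of 200 kb (10.6%). Every window thus held more peaks than the median tile, which had 1 peak at 90 and 110 kb and 2 at 200 kb, and the number at Klf5 was the one that the fewest tiles reached.

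**Figure D1:**
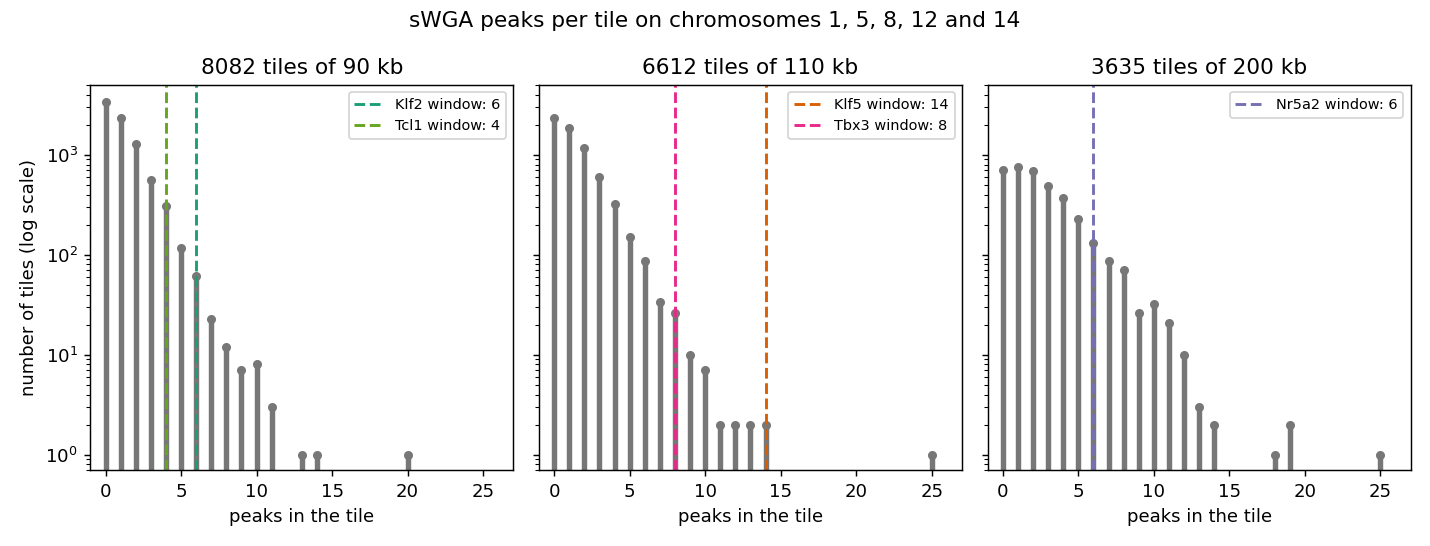
Number of sWGA peaks per tile (x axis) and number of tiles with that many peaks (y axis, log scale), for tiles of 90, 110 and 200 kb on chromosomes 1, 5, 8, 12 and 14. The tiles include the stretches of the windows. Dashed lines mark the windows: Klf5, with 14 peaks, stands near the end of its distribution, and Tcl1 (4 peaks) and Nr5a2 (6 peaks) stand at numbers that 541 and 387 tiles reach.

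By tags, the strongest peak of each window separated the loci into groups. The Tbx3 window held the peak with the most tags, 115 (95% exact Poisson interval 94.9 to 138), followed by Klf5 with 90 (72.4 to 111) and Klf2 with 63 (48.4 to 80.6). Nr5a2 reached 29 tags (19.4 to 41.6) and Tcl1 24 (15.4 to 35.7). These intervals cover counting error only, and tags read after PCR without molecular identifiers are not independent molecules. For ratios, the strongest peaks were sorted by tags and each was set over the next. No ratio could thus fall below 1, and the intervals do not allow for this choice of peaks. The Tbx3 peak had 1.28 times the tags of the Klf5 peak (0.961 to 1.70). The Nr5a2 peak had 1.21 times those of the Tcl1 peak (0.679 to 2.17). Both of these intervals include 1. The Klf5 peak had 1.43 times the tags of the Klf2 peak, with an interval of 1.02 to 2.00 that only just leaves out 1. It was also the longer, at 1542 against 528 bp. Its tags per kb were fewer, 58.4 against 119, and its height at the summit was lower, 44 against 49 tags. Between Klf2 and Nr5a2 the ratio of tags was 2.17 (1.38 to 3.50). By tags, Tcl1 and Nr5a2 therefore had no site as strong as the leading sites of Tbx3, Klf5 and Klf2. Per length this did not hold for every site. A Tcl1 peak of 212 bp held 104 tags per kb, above the leading Klf5 peak but below those of Tbx3 (120) and Klf2 (119).

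**Figure D2:**
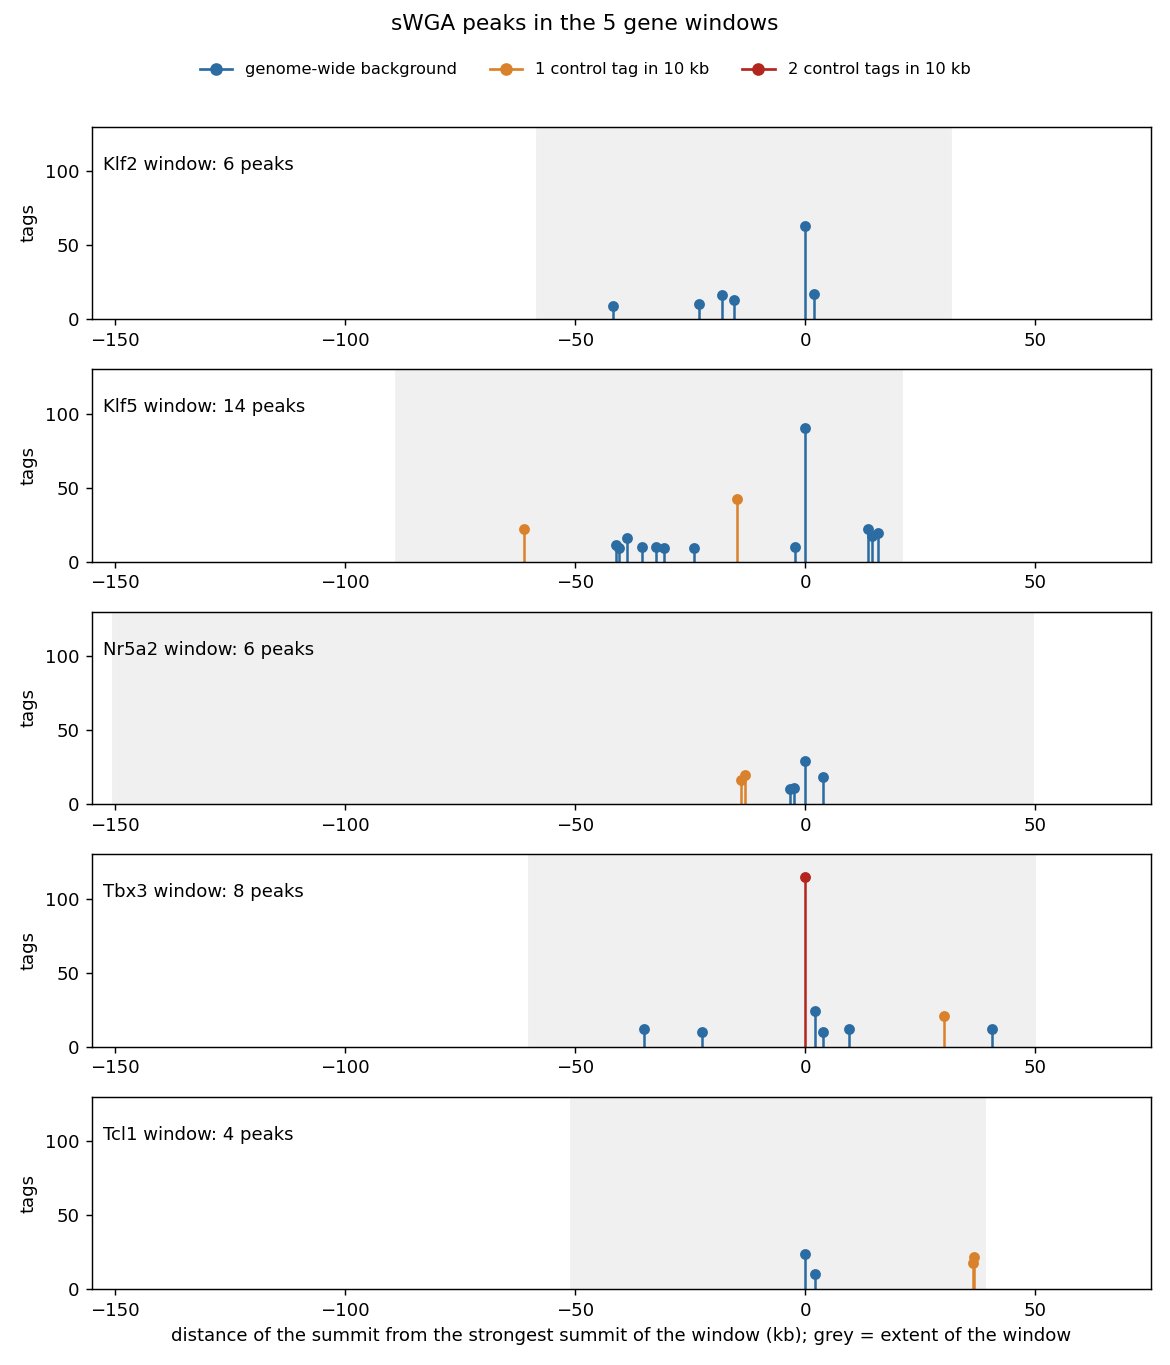
Tags in each of the 38 peaks (y axis) against the distance of the summit from the strongest summit of its window in kb (x axis), with 1 panel per window and the window shaded grey. Tbx3, Klf5 and Klf2 each have 1 peak that stands over the others (115, 90 and 63 tags), and orange and red mark peaks whose fold was taken over 1 or 2 control tags.

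At Klf2, the 6 peaks held 9, 10, 16, 13, 63 and 17 tags in order along the chromosome, 128 tags in all. The leading peak lay at 74858101 to 74858628 on chromosome 8, was 528 bp long and held 49.2% of the tags in the window's peaks. It had the highest fold of the 38, 96.44, with a score of 745.96, ranks of 104 and 149 in the whole list. The score rises by 10 for each power of 10 by which the caller's p-value falls, and the fold is the tag height at the summit over the height the caller expected. Its 119 tags per kb were 36.4 times what evenly spread tags would give, close to the 120 tags per kb of the longer leading peak at Tbx3. The other 5 peaks ranged from 9 to 17 tags. A peak of 17 tags and a score of 141.36 followed 1.90 kb after the leading one. Upstream in coordinate order, a compact peak of 264 bp at 74840033 to 74840296 had all of its 16 tags overlapping at the summit, and it scored 173.71 at a fold of 31.49. No Klf2 peak had a control tag in its local background.

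The sequence before the Klf2 start is shown because it stands apart from those of Nr5a2 and Tcl1 in base composition. No promoter of Klf5 or Tbx3 was matched, so these were not compared. It is taken from RefSeq, build GRCm38.p6, and its coordinates, chr8:72318812-72319061 on the plus strand, are not on the scale of the mm9 peak positions. Capitals mark GC boxes, the letters GGGCGG on either strand, a motif bound by Sp and Krüppel-like factors.
Klf2: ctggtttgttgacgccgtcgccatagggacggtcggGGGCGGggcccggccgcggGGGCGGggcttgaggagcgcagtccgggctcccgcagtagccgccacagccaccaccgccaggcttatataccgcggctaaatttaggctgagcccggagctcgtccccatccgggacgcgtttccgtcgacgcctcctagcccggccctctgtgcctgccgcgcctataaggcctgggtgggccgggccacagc
Of these 250 bases 71.2% were G or C, more than in 92.2% of the 32851 RefSeq promoters of that length, and 29 CG pairs were present, where the median promoter had 6. GC boxes occurred 2 times. Such a box was found in 32.7% of all promoters. The GC box was added to the motif list after the other motifs had been searched.

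The Klf5 window held the most peaks and the most tags in peaks, 296 (95% exact Poisson interval 263 to 332). Its 14 peaks spread over 76.9 kb and covered 6.91% of the window, the highest share of the 5. The leading peak, at 99738369 to 99739910 on chromosome 14, was 1542 bp long, rank 13 by length in the list, and held 90 tags with a score of 782.65, the highest of the 38. Its height at the summit was 44 tags, 48.9% of its total, so that its tags were spread along a broad region and its density was 58.4 tags per kb. That is about the density of a much smaller Klf5 peak of 22 tags at 99752350 to 99752720, with 59.3 per kb. The second Klf5 peak by tags, 42 tags at 99723828 to 99724408, lay 14.87 kb before the leading summit and scored 264.32 at a fold of 23.09.

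Weaker Klf5 peaks formed chains on both sides. From 99697662 to 99708328, 6 peaks of 9 to 16 tags followed each other, with gaps of 298 to 2788 bp between them. After the leading peak, 3 peaks of 22, 17 and 19 tags lay between 99752350 and 99754880. The last of these was 744 bp long, had only 6 of its 19 tags at the summit and a fold of 11.81. A peak of 22 tags at 99677767 to 99678156 stood alone, 19.9 kb before its nearest neighbour. The other 2 peaks were weak: that at 99714784 to 99715223 had 9 tags and a score of 55.35, and that at 99736499 to 99736879 had 10 tags and a score of 70.34.

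At Nr5a2 the 6 peaks held 16, 20, 10, 11, 29 and 18 tags, 104 in all, and were confined to 18.0 kb of the 200 kb window. The first 136 kb of the window held none. The leading peak at 138849946 to 138850679 on chromosome 1 was 734 bp long and scored 219.94, with 29 tags and a fold of 31.49. Around it stood a peak of 18 tags 3.91 kb further on, at 138853994 to 138854667, and a pair of 10 and 11 tags, 3.25 kb and 2.43 kb before it in that order. Another pair lay 14.05 and 13.02 kb before the leading summit, at 138836241 to 138836745 with 16 tags and at 138837218 to 138837545 with 20 tags. The second of this pair was the shorter, 328 against 505 bp, and the better scored, 121.74 against 60.17. All 6 Nr5a2 peaks had another summit within 5 kb.

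RefSeq lists 2 starts for Nr5a2, and the 250 bases before each are shown to set them against the Klf2 sequence. They lie at chr1:136953631-136953880 and chr1:136960449-136960698 of GRCm38.p6, on the minus strand.
Nr5a2, first: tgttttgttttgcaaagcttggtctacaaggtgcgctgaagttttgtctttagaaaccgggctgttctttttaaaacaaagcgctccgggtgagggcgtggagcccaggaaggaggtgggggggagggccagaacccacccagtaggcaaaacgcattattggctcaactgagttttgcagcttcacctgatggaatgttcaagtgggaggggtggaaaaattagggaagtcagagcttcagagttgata
Nr5a2, second: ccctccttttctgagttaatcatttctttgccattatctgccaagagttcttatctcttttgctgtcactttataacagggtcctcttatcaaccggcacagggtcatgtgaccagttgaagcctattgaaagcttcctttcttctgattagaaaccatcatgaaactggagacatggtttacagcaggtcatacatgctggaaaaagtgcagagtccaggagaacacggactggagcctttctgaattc
These held 49.6% and 43.2% G or C, both below the 52.4% of the median promoter, with 6 and 2 CG pairs. Neither held a GC box.

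At Tbx3 the 8 peaks held 12, 10, 115, 24, 10, 12, 21 and 12 tags, 216 in all, over 75.7 kb. The leading peak at 120129773 to 120130734 on chromosome 5 was 962 bp long and held 53.2% of these tags. By tags it was rank 30 of the 33783 peaks and by score, 604.05, rank 299. By fold, 28.45, it was only rank 3831, below a far smaller neighbour. That neighbour had 24 tags, lay 2.06 kb on at 120131681 to 120132354 and reached a fold of 37.39. The remaining peak of at least 18 tags, with 21 tags at 120159805 to 120160391, scored 83.85 at a fold of 13.19. The other 5 peaks ranged from 10 to 12 tags. One of them, at 120107331 to 120107570, was 240 bp long with all 10 tags at the summit.

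The Tcl1 window held the fewest peaks and tags, 24, 10, 18 and 22 tags or 74 in all, as 2 pairs that stood 34.3 kb apart. The peak with the most tags, at 106460804 to 106461699 on chromosome 12, was 896 bp long and flat, with 9 of its 24 tags at the summit, and scored 147.16 at a fold of 17.71. A weaker peak of 10 tags lay 2.08 kb further on. The other pair was separated by only 131 bp. Of these, the peak at 106497603 to 106497814 was the shortest of the 38, at 212 bp, and had all 22 tags overlapping at its summit, for 104 tags per kb and a score of 252.63. Its partner at 106496912 to 106497471 held 18 tags over 560 bp, with a score of 66.92 and the lowest fold of the 38, 8.25. The summit of the shorter peak lay 2.29 kb inside the window's edge. The Tcl1 peak with the most tags was not the one with the highest deposited score, 147.16 against 252.63. The higher of these scores was not reproduced when computed again, as described below, and came to 145.7.

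The 250 bases before the Tcl1 start are shown as the only other promoter of the set with GC boxes. They lie at chr12:105222738-105222987 of GRCm38.p6, on the minus strand, and the box is in capitals as it reads on the other strand.
Tcl1: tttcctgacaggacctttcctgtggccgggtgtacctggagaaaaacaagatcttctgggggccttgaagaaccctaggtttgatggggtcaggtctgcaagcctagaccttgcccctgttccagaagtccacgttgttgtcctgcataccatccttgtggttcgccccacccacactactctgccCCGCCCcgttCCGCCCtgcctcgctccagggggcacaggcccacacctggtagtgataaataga
This sequence held 57.6% G or C, 7 CG pairs and 2 GC boxes. Promoters of 3 of the 5 genes were matched in RefSeq, and Klf5 and Tbx3 were not matched. The octamer ATGCAAAT, a motif of Oct4, was in 0 of the 4 promoters shown and in 1.6% of all promoters. The looser form ATGCNAAT, which includes the octamer, was in 0 of 4 against 2.86%. The Sox motif CATTGT was in 0 of 4 against 10.7%, and the E-box CACGTG in 0 of 4 against 6.02%. All were searched on both strands, and a motif absent from these windows says nothing about binding elsewhere. Which peaks, if any, overlap these promoters was not analysed here, because the promoters and the peaks are on different builds.

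The 38 peaks had a higher median of tags than the whole list and the same median of deposited folds. Their median was 16 tags, against 11 in all 33783 peaks, and 24 of 38 stood above that value. An exact binomial 95% interval on the median, which takes the peaks as independent, was 11 to 19 tags and so reached the value of the whole list. The median length was 455.5 bp against 419 bp, and the median score 98.29 against 79.96. The median fold was 15.75, equal to that of all peaks. The expectations under these folds differ, however. A higher expectation from nearby control tags, which lowers the fold, applied to 21.1% of the 38 peaks and 8.79% of all. The equal medians are therefore not a comparison of summit heights. Over the summed length of the peaks, tags stood 12.8 times over an even spread, against 10.7 times for all peaks, with 15.8 at Tbx3, 15.2 at Klf2, 11.9 at Klf5, 11.3 at Tcl1 and 10.1 at Nr5a2. These peaks share loci and a single library and are not replicates.

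At least 18 tags were found in 15 of the 38 peaks (39.5%), against 21.4% of all peaks. The 15 were 5 at Klf5, 3 each at Nr5a2, Tbx3 and Tcl1 and 1 at Klf2. A score of at least 100 was reached by 19 (50%), against 33.9% of all, with 8 at Klf5, 3 each at Klf2, Nr5a2 and Tbx3 and 2 at Tcl1. Both shares use deposited scores. The Klf5 peak of 247 bp and the Tbx3 peak of 240 bp passed only by these, at 112.54 and 101.12. Computed again as described below, their scores were 90.03 and 79.28. At least 60 tags were held by 3 (7.89%), against 1.14% of all, namely the leading peaks of Tbx3, Klf5 and Klf2. These were also the 3 peaks with an FDR of 100%, a value shared by 2.21% of all peaks. This FDR is the authors' and comes from calling the control against the sWGA library. Among the 38 peaks it rose with the score, from 2.27% at a score of 54.01, so a high value does not mark a weak site. A length over 500 bp was found in 16 of 38 (42.1%), against 20.7% of all. Peaks of 9 to 12 tags made up 44.7% of the 38 and 62.3% of the list.

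**Figure D3:**
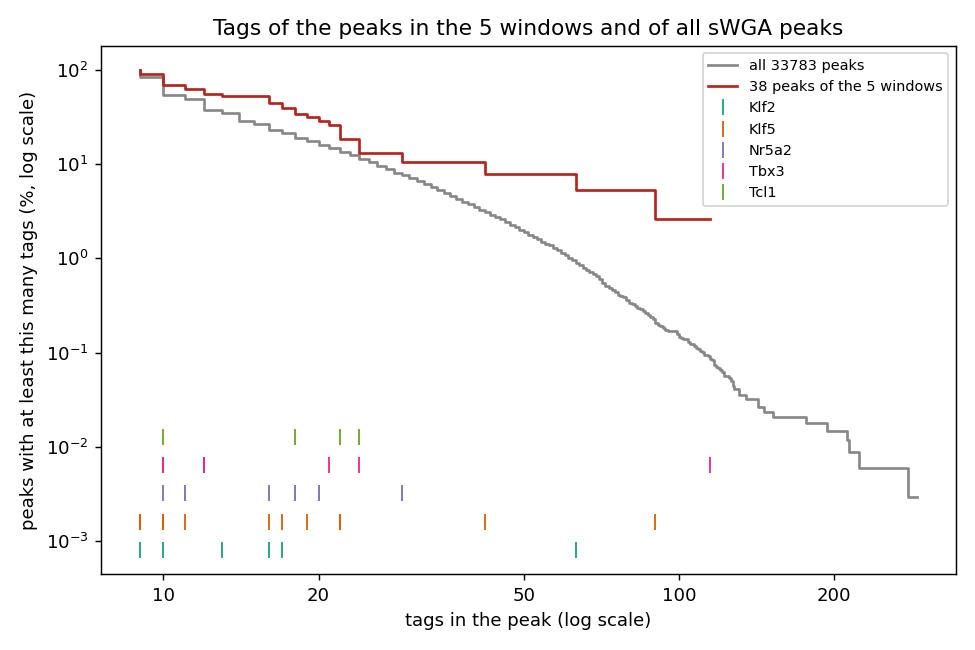
Share of peaks with at least a given number of tags (y axis, percent, log scale) against the number of tags (x axis, log scale), for the 38 peaks of the windows (red) and all 33783 peaks (grey). Ticks along the bottom give the tags of each peak by gene, at heights that carry no value; at 60 tags the red line is at 7.89% and the grey line at 1.14%.

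Peaks in the windows had close neighbours. Another summit lay within 5 kb for 29 of 38 (76.3%), against 25.9% of all peaks, and within 1 kb for 8 (21.1%), against 7.6%. These shares are bound to the density of peaks, 63.3 per Mb in the windows against 12.7 on the rest of the chromosomes. They are not a trait separate from it. All 5 leading peaks had a neighbour within 5 kb, at 1.90 kb for Klf2, 2.06 kb for Tbx3, 2.08 kb for Tcl1, 2.25 kb for Klf5 and 2.43 kb for Nr5a2. The neighbour held 10 to 24 tags. That it held fewer than the leading peak follows from the definition, since the leading peak has the most tags of its window. Close spacing was least frequent at Tbx3, in 3 of 8 peaks, and it was present in 5 of 6 at Klf2, 11 of 14 at Klf5 and all peaks at Nr5a2 and Tcl1. Peaks called from 1 enriched stretch and separate sites cannot be told apart in the lists. With gaps of up to 1 kb joined, the 38 peaks became 31.

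The control entered these values through the fold. The caller divides the height at the summit by 0.508 tags, the genome-wide expectation, unless control tags nearby give a higher one. A control tag in a 10 kb background window raises that expectation to 1.21 tags, because each was scaled up by 78.2. For 30 peaks the fold times 0.508 gave a whole number of tags at the summit, with a tolerance of 0.01. For another 7 the expectation from 1 control tag did so, and for the leading Tbx3 peak that from 2. With these expectations the deposited score was computed again within 0.05 for 34 of the 38. The 4 exceptions were the 4 peaks shorter than 310 bp, at Klf2, Klf5, Tbx3 and Tcl1. Their deposited scores lay above those computed again, by up to 106.93 at Tcl1.

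A local control background was thus present for 8 of 38 peaks (21.1%), against 8.79% of all peaks. They were 2 each at Klf5, Nr5a2, Tbx3 and Tcl1 and 0 at Klf2. All 8 held 16 tags or more, with a median of 21.5 tags, against 12 for the 30 others. With 1 control tag nearby, a peak of 10 tags over 310 bp would score 43.26, under the caller's limit of 50, so the share among weak peaks is bound by the calling. Among peaks of at least 18 tags it was 7 of 15 (46.7%), against 22.0% of the 7214 such peaks in the list. Neighbouring peaks can share a control tag, as the Nr5a2 pair 1.04 kb apart and the Tcl1 pair 374 bp apart may do. These 8 therefore need not be 8 separate control signals.

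The local background lowered the folds of all these peaks, and 7 of them had scores below those over the genome-wide expectation. The exception was the Tcl1 peak of 212 bp, with a deposited score of 252.63 against 226.75 over the genome-wide expectation. That deposited score was not reproduced and came to 145.7 when computed again with 1 control tag. The leading Tbx3 peak had a height of 69 tags, the greatest of the 38, above 49 at Klf2 and 44 at Klf5. Over the genome-wide expectation its fold would be 135.8 in place of 28.45 and its score 1340.29 in place of 604.05. The Klf5 peak of 42 tags would have a fold of 55.11 in place of 23.09. The Nr5a2 peak of 20 tags would score 194.92 in place of 121.74, and its partner of 16 tags 115.07 in place of 60.17. By the highest deposited score in the window the order was Klf5, Klf2, Tbx3, Tcl1 and Nr5a2, whereas by tags it was Tbx3, Klf5, Klf2, Nr5a2 and Tcl1. The 3 strong loci and the 2 weak ones were the same either way, and only the order within each set changed. By score, Tcl1 stood above Nr5a2 only through the deposited value of its 212 bp peak. With scores computed again, Nr5a2 led with 219.94 against 147.16 for Tcl1. The leading peaks of Nr5a2 and Tcl1 had the genome-wide background, and the best-scored Tcl1 peak had 1 control tag. Whether the control tags beside Tbx3 came from Flag-Oct4 chromatin was not tested.

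**Figure D4:**
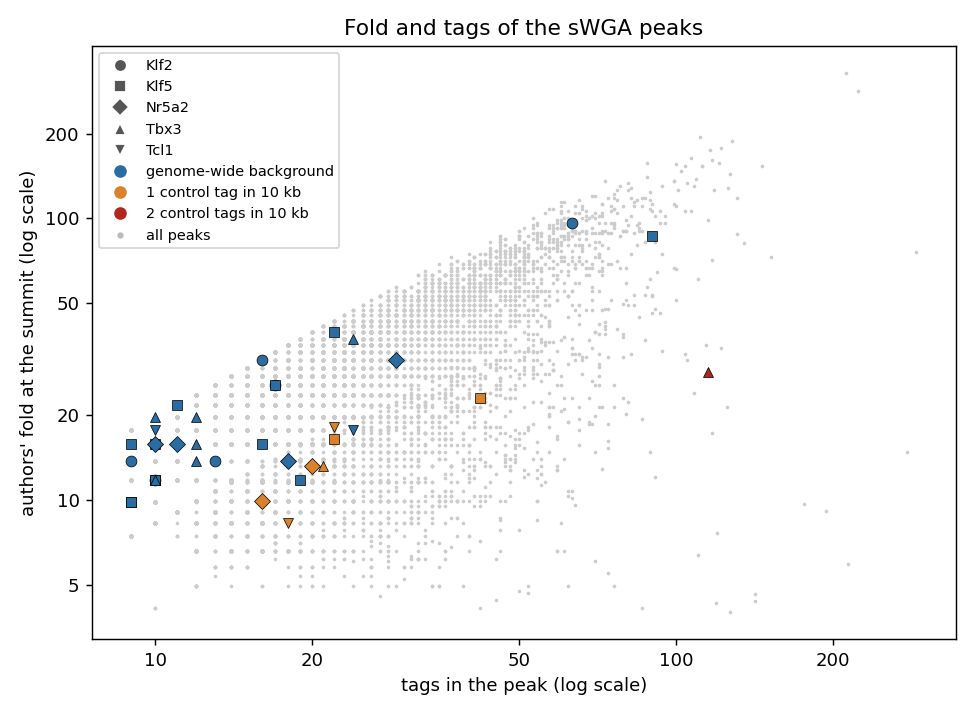
The authors' fold at the summit (y axis, log scale) against tags (x axis, log scale) for all peaks (grey) and the 38 peaks of the windows, with marker shape by gene and colour by background. The leading Tbx3 peak (red, 115 tags, fold 28.45) lies below the leading peaks of Klf2 (96.44) and Klf5 (86.6), which have the genome-wide background.

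In the control list the windows were empty, and so were the 50 kb on either side. The nearest control region to a window lay 209 kb from Nr5a2, 224 kb from Klf2, 431 kb from Klf5, 2330 kb from Tcl1 and 6580 kb from Tbx3. Such regions were sparse everywhere: a control region was present in 2.04% of tiles of 90 kb, 2.45% of tiles of 110 kb and 4.35% of tiles of 200 kb on these chromosomes. Spread evenly, 0.241 of the 750 regions would lie in the 600 kb. Evenly spread control tags would number 25.1 over the windows, and every control region held at least 3. An empty control list in these windows is therefore the usual state of this shallow library, and a control signal of the strength of these peaks was not detectable at its depth.

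Some peaks lay close to the edges of the windows. Inside, the outermost summits lay 2.29 kb (Tcl1, 22 tags) to 136.39 kb (Nr5a2, 16 tags) from an edge. Outside, the nearest summit was 4.13 kb before the Klf5 window, with 10 tags, and 4.59 kb before the Klf2 window, also with 10 tags. Beyond the other edges the nearest peaks lay 21.54 to 115.05 kb away and held 9 to 22 tags. In RefSeq gene order the protein-coding neighbours are Ap1m1 and Eps15l1 for Klf2, Pibf1 and Klf12 for Klf5, Zfp281 and Ptprc for Nr5a2, Med13l and Tbx5 for Tbx3, and Tcl1b4 and D430019H16Rik for Tcl1. The peaks were not assigned to any of these genes, and which gene a site acts on was not tested.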

How the data were processed

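Oct4-bound chromatin was precipitated and sequenced in 1 sWGA library and 1 control library. Per the labels' protocols, chromatin was sheared to between 100 and 500 bp, released from the lectin beads with 0.5 M GlcNAc, amplified over 18 cycles and read for 76 cycles. Positions are on mm9, as the submitters' processing notes state, and the aligner is not given in the sources used here. Per the file headers, the authors used MACS 1.4.1 with a p limit of 1e-05, calling each list on 1 library against the other and without pooling. The deposited tag count is whole, unscaled tags per region. The score in the deposited lists is the log10 of the p-value, turned positive and multiplied by 10. The fold as deposited sets summit height over expected height, a ratio, and FDR is given by the authors in percent. These are the authors' own values except where computed again.

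Peaks were assigned to windows, counted, ranked within their list and set against tiles with Python 3.11.15, numpy 2.4.6, pandas 2.3.3 and scipy 1.17.1. Control tags behind a fold were read as the smallest number giving whole tags within 0.01. With simulated folds 99.5% of 2000 were counted as recovered. That count also passed folds made with 2 control tags but read as 1 at a lower height. It is therefore not the share with the exact number of control tags recovered. Every peak was to be described in full that led its window or held at least 18 tags, and the others by count and range. In full meant position, length, tags, score, fold, FDR and rank. This plan was followed only in part, since several of these peaks are given with only some of those values. Windows, members and lists were chosen with earlier results of these data known. Peaks near other self-renewal genes were not analysed, since no annotation of mm9 was used here. Alternatives were other limits on score, fold, tags and FDR, overlap with a window in place of the summit, wider windows and joined peaks.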

Additional observations from a re-analysis of the deposited data

How the results depend on the processing

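No paired analysis was possible because only 1 library stands for each group, and none could be left out. A score of at least 100 kept 19 of the 38 peaks (3 at Klf2, 8 at Klf5, 3 at Nr5a2, 3 at Tbx3, 2 at Tcl1) and raised the median tags to 22 and the median fold to 23.09. At least 18 tags kept 15 (1 at Klf2, 5 at Klf5, 3 at Nr5a2, 3 at Tbx3, 3 at Tcl1), with medians of 22 tags and 587 bp. An FDR of at most 5% kept 18 (3 at Klf2, 6 at Klf5, 3 at Nr5a2, 4 at Tbx3, 2 at Tcl1), with medians of 10 tags and a fold of 13.48, since it removes strong peaks. These shifts follow from the limits themselves, which remove peaks by strength. A fold of at least 10 kept 34 peaks, overlap of any base gave the same 38, windows widened by 50 kb on each side gave 50, and joining gave 31. Peaks with the genome-wide background alone, an alternative chosen after seeing the data, numbered 30, with 2 of 4 at Tcl1 and a median of 12 tags. The count of 0 control regions was 0 under both alternatives run. The depth of the control library, at 78351 tags, limits every statement about the control.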
